A study of Mus musculus with 20 samples.

Results

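The chemokines and chemokine receptors measured here are the array's genes named Ccl, Cxcl, Ccr or Cxcr with a number, together with Cx3cl1 and Cx3cr1. The names come from the array files, which list 51 such genes, 34 ligands and 17 receptors, on 68 probes. A gene was tested when any strain had all 4 of its arrays well above background for a probe of that gene, as was the case for 29 of the 51 genes, 19 ligands and 10 receptors. These 29 stand among 20566 tested genes of the whole array. The samples are livers of 20 male mice fed a high fat diet with 45% fat, 4 mice from each of 5 inbred strains, and every strain received the same diet. The strains are NZO/HiBomDife (NZO), DBA/2J (DBA), C57BL/6 (B6), C3HeB/FeJ (C3H) and 129P2/OlaHsd (129/Ola), without an engineered allele in the labels. By the title of the series, NZO mice are obese and prone to diabetes, C3H and DBA mice are prone to it, and 129/Ola and B6 mice are lean and resist it. The feeding ended at week 6 and the extraction notes give 6 weeks of age, so the length of the feeding is not certain. No mice on another diet were analysed here, so every difference below is between strains on this diet.

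Chemokines are small secreted or membrane-bound proteins that bind G protein-coupled receptors on leukocytes and guide their migration. The families are named after the spacing of conserved cysteines (CC, CXC and CX3C), and receptors are named after the family they bind. In liver, hepatocytes, Kupffer cells, stellate cells and endothelial cells make chemokines, which recruit monocytes, neutrophils and lymphocytes in steatosis and injury.

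A level below is the log2 of the processed signal of a gene's probe minus the 75th percentile of that array, so 0 is the signal of the 75th percentile. Levels of different probes are on different scales and were not compared. The summed levels of marker lists below add probes on the linear scale, so brighter probes weigh more in them. Where a gene had several tested probes, the one with the highest mean over 20 arrays stood for it. Values are listed in the order of the animal numbers, which are 3, 7, 9 and 11 for NZO, 5, 8, 9 and 15 for DBA, 9, 10, 11 and 15 for B6, 1, 2, 3 and 5 for C3H, and 4, 5, 7 and 9 for 129/Ola. Differences are the first strain minus the second, with limma's standard error (SE) and p-values adjusted over all 20566 genes, and 0.05 was the threshold. Animal numbers in the labels were taken to mean 1 mouse per array, and the p-values measure the spread between these mice. In whole liver, fewer cells of a type and less RNA per cell cannot be told apart.

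The arrays of NZO, DBA and B6 were read with 1 version of the extraction software and share 2 of their 3 scan days, while the arrays of C3H and those of 129/Ola were read with another version, each strain on a scan day and on slides of its own. For C3H against 129/Ola, strain and scan day therefore cannot be told apart. Scan day 3 held only DBA 8 and DBA 15, on a slide of their own. Levels of C3H and 129/Ola are given beside those of the other strains without a test between them, because software version, scan day and strain cannot be told apart there. No array had more than 59.0% of its probes well above background, and the number of arrays limits the precision. The labelled tissue was checked against 12 hepatocyte markers, all of which were tested, with a summed linear level between 9412 and 11808 times the array's 75th percentile over the 20 mice.

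Of the 29 genes, 23 differed between strains in limma's F test over NZO minus B6, DBA minus B6 and C3H minus 129/Ola, which is 79.3%, beside 48.3% of all genes tested. Against B6, 12 genes passed the threshold in NZO, 3 higher and 9 lower, beside 18.3% of all genes (9.73% higher and 8.55% lower). The split was 5 higher and 5 lower with only the arrays of NZO and B6, 5 and 6 with scan day as a block, and 4 and 6 with normexp background correction, so the lean to lower calls depends on the setting. Ccr9, among the lower genes, entered the test only through its B6 arrays. In DBA against B6, 11 passed, 6 higher and 5 lower, beside 15.4% of all genes (7.3% higher and 8.1% lower). NZO and DBA differed in 12, 6 higher and 6 lower in NZO, beside 18% of all genes (9.76% higher and 8.26% lower). C3H and 129/Ola also differed in 12, 6 higher and 6 lower in C3H, beside 38% of all genes (15.3% higher and 22.6% lower). The share of the 29 genes that passed was 41.4% in each comparison with 12 calls. With slide as a random block, C3H and 129/Ola differed in 4 genes (Ccl27a, Ccl25, Cx3cr1 and Ccl9), and with scan day as a fixed block, NZO and DBA differed in 7. The median log2 difference over the 29 genes was -0.11 for NZO against B6, -0.33 for DBA against B6, -0.18 for NZO against DBA and -0.11 for C3H against 129/Ola, beside 0.05, 0.01, 0.04 and -0.08 over all genes in the same order of comparisons. The 3 comparisons among NZO, DBA and B6 share mice, so their values are not independent of each other. Values of the 2 strains were fully separate for 13 of the 29 genes in NZO against B6 (22.4% of all genes), for 16 in DBA against B6 (19.7%), for 14 in NZO against DBA (20%) and for 8 in C3H against 129/Ola (40.3%).

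**Figure D1:**
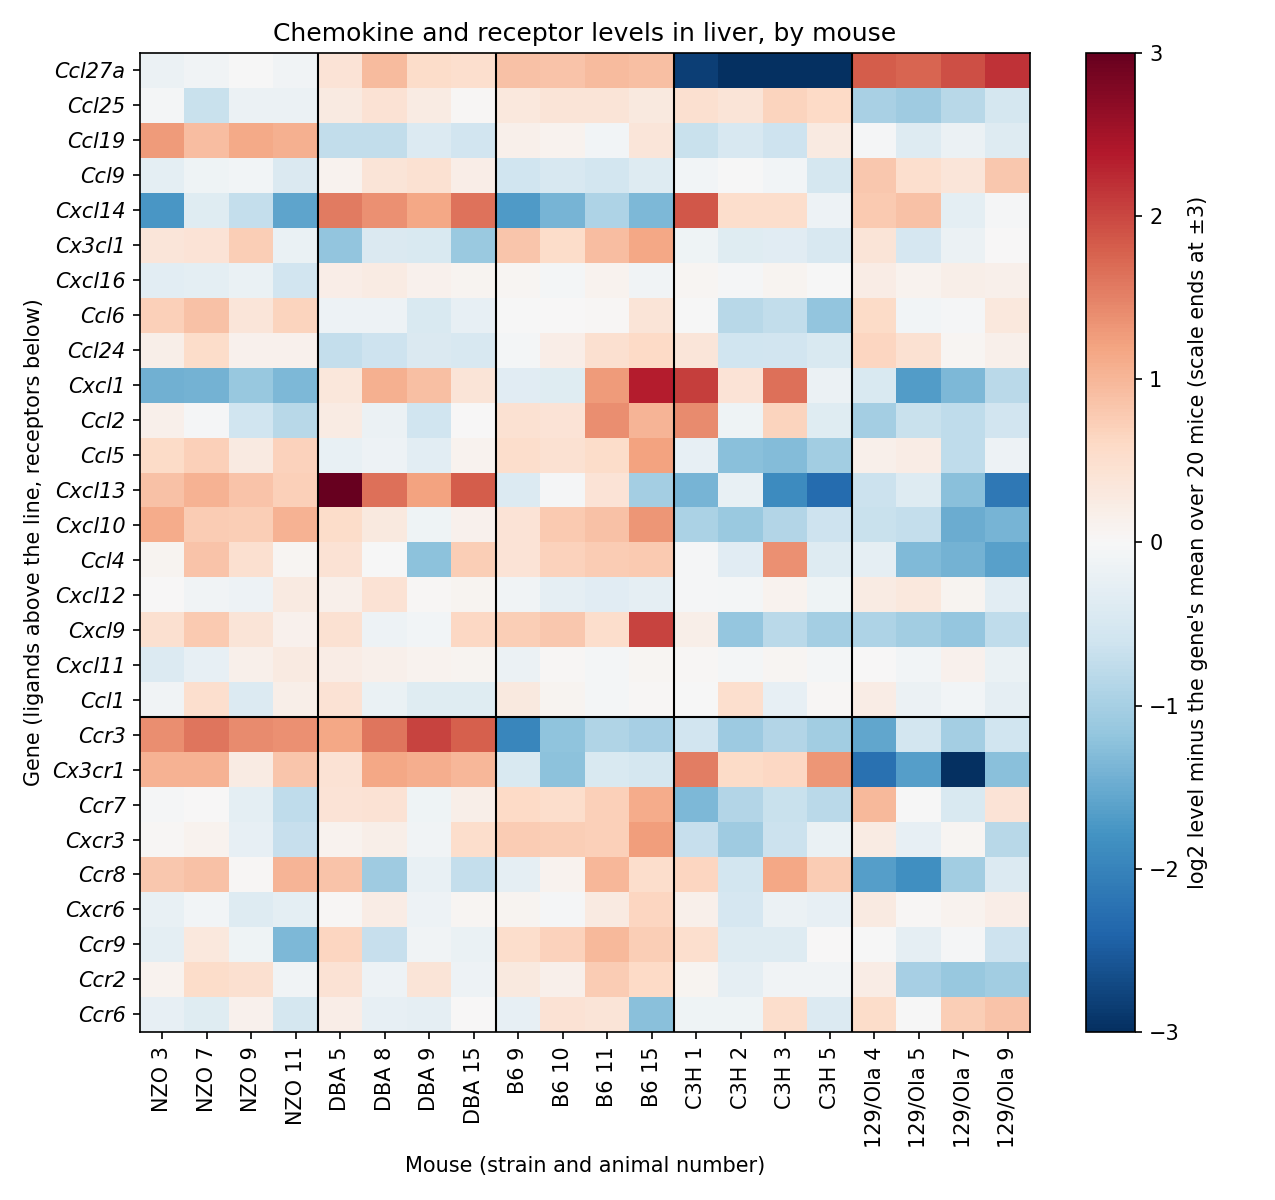
Level of 28 of the 29 tested genes in each of the 20 livers, as the log2 level minus the gene's mean over the 20 mice, with ligands above the horizontal line and receptors below it. Each column is a mouse, vertical lines separate the strains, and the colour scale ends at 3 in both directions. Ccl27a is lowest in the 4 C3H mice, Ccr3 is high in the NZO and DBA mice, and Cxcl1 is highest in B6 mouse 15.

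**Figure D2:**
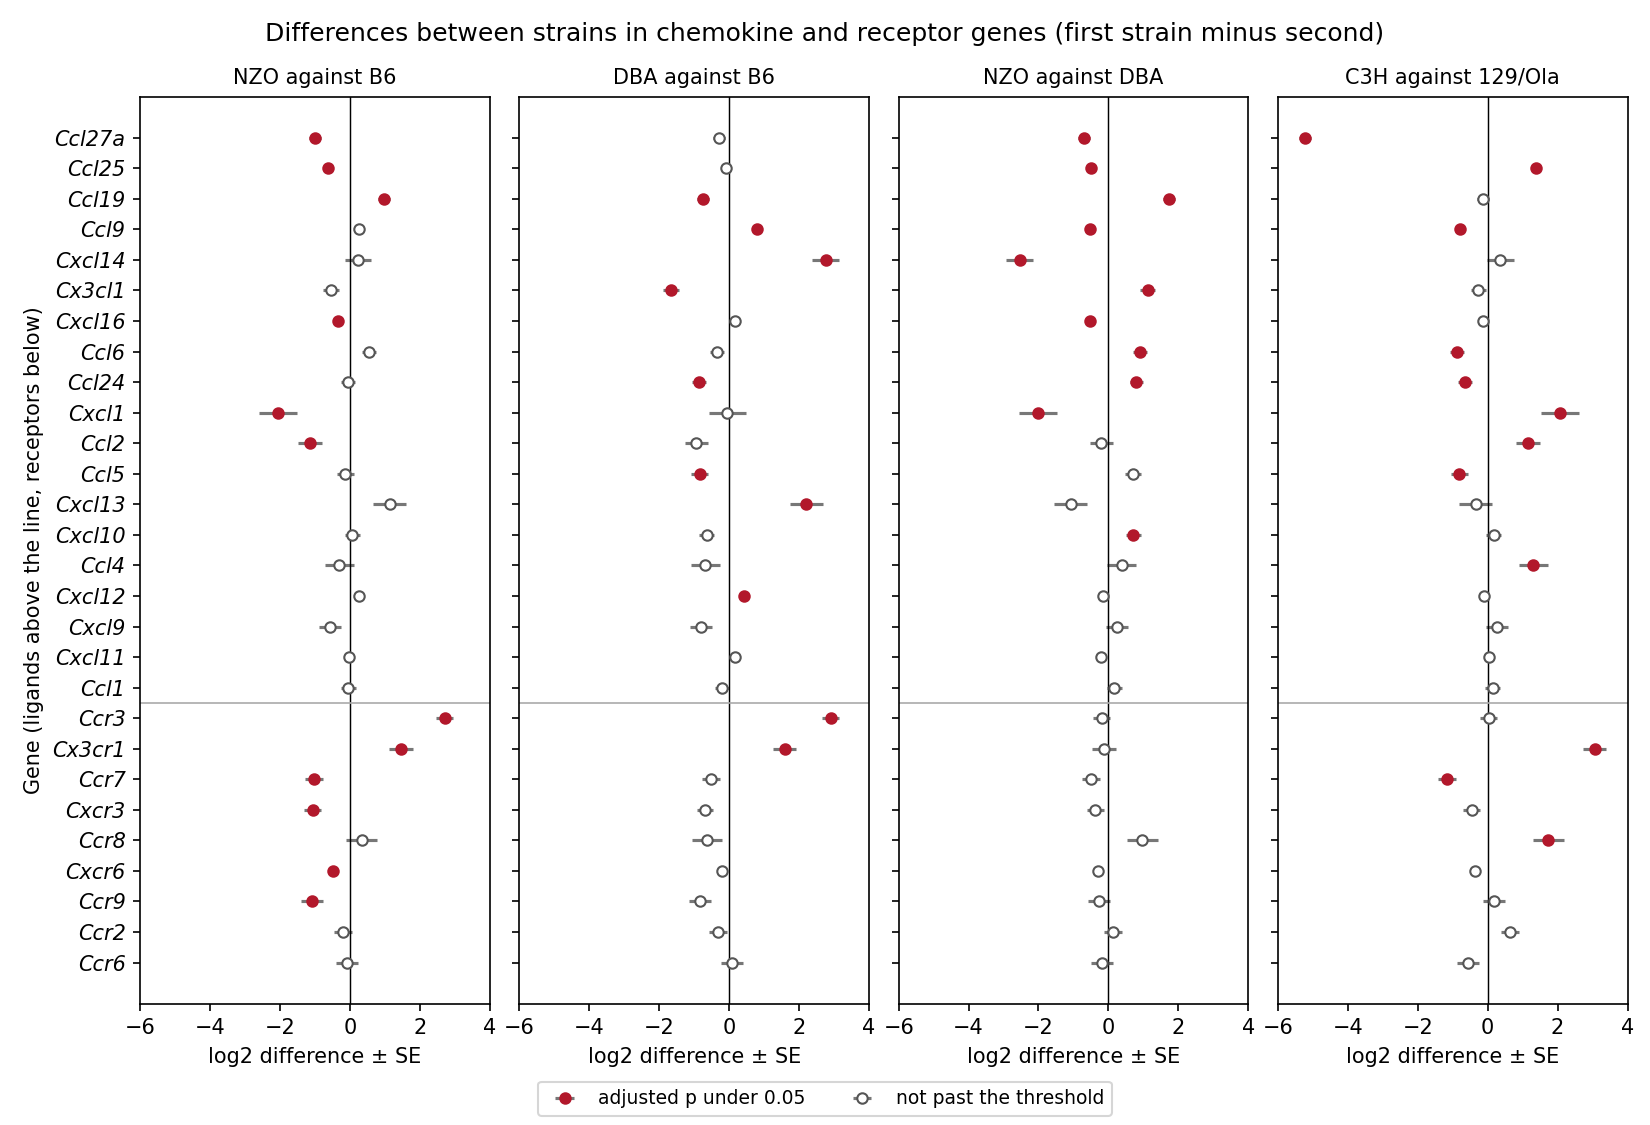
Log2 difference with its SE (horizontal bar, n = 4 mice per strain) for 28 of the 29 tested genes in the 4 comparisons, first strain minus second. Filled points passed an adjusted p of 0.05 in limma. Ccl27a in C3H against 129/Ola lies farthest from 0, at -5.24.

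Among the CC ligands made early in inflammation, 6 of 12 were tested, and genes of both directions passed in all comparisons but NZO against B6, which had 1 call. None was higher and 1 lower in NZO against B6, 1 was higher and 2 lower in DBA against B6, 2 were higher and 1 lower in NZO against DBA, and 2 were higher and 4 lower in C3H against 129/Ola. Ccl9, a CC ligand of mouse that attracts myeloid cells through Ccr1, had levels of 4.48, 4.63, 4.68 and 4.33 in NZO livers and 4.87, 5.15, 5.21 and 4.96 in DBA livers, against 4.16, 4.27, 4.22 and 4.37 in B6 livers. The DBA mice did not overlap with the NZO or the B6 mice, while the lowest NZO mouse lay below the highest B6 mouse. Ccl9 was higher in DBA than in B6 by 0.79 ± 0.13 on the log2 scale (limma, adjusted p = 2.41e-04) and lower in NZO than in DBA (-0.52 ± 0.13, adjusted p = 0.00879). In C3H livers the levels were 4.67, 4.76, 4.69 and 4.24, against 5.57, 5.27, 5.13 and 5.57 in 129/Ola livers, without overlap. The difference was -0.80 ± 0.13 (adjusted p = 1.79e-04), the reverse of the direction in DBA against B6. The probe for this gene maps to chr11:83388223-83388282 on the minus strand (mm9).

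Ccl6, a close relative of Ccl9 in mouse, had levels of 2.73, 2.90, 2.37 and 2.67 in NZO livers and 1.86, 1.87, 1.55 and 1.76 in DBA livers, against 1.99, 2.02, 2.04 and 2.39 in B6 livers. All NZO mice lay above all DBA mice, and the difference of 0.91 ± 0.20 passed the threshold (limma, adjusted p = 0.00367). Against B6, NZO differed by 0.56 ± 0.20 (adjusted p = 0.0694), which did not pass. C3H livers had 2.0, 1.17, 1.28 and 0.82, against 2.58, 1.93, 1.97 and 2.34 in 129/Ola livers. The highest C3H mouse overlapped with the lower 129/Ola mice, and Ccl6 was lower in C3H by a log2 difference of -0.89 ± 0.20 (adjusted p = 0.00295). This gene was read by a probe at chr11:83401997-83402056 on the minus strand (mm9).

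Ccl24, the eosinophil attractant eotaxin-2 that binds Ccr3, had levels of 0.74, 1.11, 0.69 and 0.69 in NZO livers and -0.15, -0.05, 0.13 and 0.09 in DBA livers, against 0.51, 0.75, 1.04 and 1.15 in B6 livers. The DBA mice lay below every NZO and every B6 mouse. The log2 difference was -0.86 ± 0.20 for DBA against B6 (limma, adjusted p = 0.00543) and 0.80 ± 0.20 for NZO against DBA (adjusted p = 0.00798). C3H livers had 0.92, -0.04, -0.02 and 0.10, against 1.20, 1.02, 0.61 and 0.71 in 129/Ola livers. C3H mouse 1 lay among the 129/Ola mice and the other C3H mice lay below them, with a difference of -0.64 ± 0.20 (adjusted p = 0.0183). That call did not pass without C3H 2, C3H 3, C3H 5 or 129/Ola 4 (adjusted p from 0.0501 to 0.061). Its probe is at chr5:136046667-136046726 on the minus strand (mm9).

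Ccl2, which attracts monocytes through Ccr2, had levels of -1.26, -1.44, -2.0 and -2.24 in NZO livers and -1.16, -1.58, -2.0 and -1.39 in DBA livers, against -0.96, -1.0, -0.02 and -0.39 in B6 livers. Every NZO and every DBA mouse lay below the lowest B6 mouse. The difference passed the threshold for NZO against B6 (-1.14 ± 0.33, limma, adjusted p = 0.0232) and not for DBA against B6 (-0.94 ± 0.33, adjusted p = 0.0697). Without NZO 9, NZO 11, B6 11 or B6 15, each left out alone, the call in NZO against B6 did not pass (adjusted p from 0.0588 to 0.0783). C3H livers had 0.01, -1.52, -0.74 and -1.77, against -2.42, -2.07, -2.17 and -1.99 in 129/Ola livers, where 2 of the 4 arrays were well above background. Ccl2 was higher in C3H by 1.16 ± 0.33 (adjusted p = 0.0123), without overlap and with C3H mouse 1 highest. That call did not pass with normexp background correction, with slide as a random block or with the animal number as a block. Its lowest value over the alternatives was 0.29. The probe for this gene maps to chr11:81850650-81850709 on the plus strand (mm9).

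Ccl5, a T cell attractant made by T cells and natural killer cells, was lower in DBA than in B6 (-0.84 ± 0.24, limma, adjusted p = 0.0236) and lower in C3H than in 129/Ola (-0.82 ± 0.24, adjusted p = 0.0141), where the mice overlapped. Its mean level was 0.87 ± 0.18 in DBA and 1.70 ± 0.35 in B6 (SD, n = 4 each), and the lowest B6 mouse lay above the highest DBA mouse. The call in DBA against B6 did not pass without DBA 8, DBA 9 or B6 15 (adjusted p from 0.0512 to 0.0921). Ccl4, a macrophage inflammatory protein, lay near background. It was well above background on 1 of 4 C3H arrays and on no 129/Ola array, and its difference of 1.31 ± 0.42 (adjusted p = 0.0221) carries no fold, because the C3H mean was not above the lowest detectable signal of the 129/Ola arrays. That call did not pass without C3H 3, 129/Ola 5, 129/Ola 7 or 129/Ola 9 (adjusted p from 0.0508 to 0.0831), and with another background correction (normexp) the value was -0.0082. Of the other members of this group, Ccl3, Ccl7, Ccl8, Ccl11, Ccl12 and Ccl26 were not tested, and Ccl7 was well above background on 3 of 4 B6 arrays and on no other array.

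The remaining CC ligands guide cells to lymphoid tissue, gut and skin, and 4 of 8 were tested. Ccl27a, the skin-homing ligand of Ccr10, showed the greatest difference of all 29 genes. Its level was -1.45, -1.78, -2.49 and -2.08 in C3H livers, against 3.19, 3.11, 3.30 and 3.54 in 129/Ola livers. No C3H mouse came near the 129/Ola mice, and the log2 difference was -5.24 ± 0.17 (limma, adjusted p = 3.32e-13). NZO livers had 1.20, 1.26, 1.36 and 1.27 and DBA livers 1.79, 2.31, 1.91 and 1.88, against 2.25, 2.23, 2.33 and 2.26 in B6 livers. All NZO mice lay below all DBA and B6 mice, and DBA mouse 8 lay within the range of B6. Ccl27a was lower in NZO than in B6 (-0.99 ± 0.17, adjusted p = 3.20e-04) and than in DBA (-0.70 ± 0.17, adjusted p = 0.00607), while DBA against B6 did not pass (-0.29 ± 0.17, adjusted p = 0.312).

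Ccl27a was measured by 3 probes of 60 bases on the minus strand of chromosome 4, at chr4:41716345-41716404, chr4:41716357-41716416 and chr4:41720610-41720669 (mm9). Their first 30 bases, 5′ to 3′, are shown in the same order, because capitals mark bases of a run of 48 that the first and second probes have in common, so that these are not independent measurements.
A_55_P2068734: GAAAATGTACTCAAACCCCCAACAGCAAAA
A_55_P2068723: ggtactacaaaaGAAAATGTACTCAAACCC
A_55_P2070576: tcggagccccggacatgtcgcgattgagga
The third probe shares no run of more than 4 bases with either. It had -5.38, -3.91, -4.61 and -4.98 in C3H livers, against -0.72, -0.74, -0.66 and -0.49 in 129/Ola livers. It was not well above background on any C3H array and was at least 5.14-fold lower in C3H (adjusted p over all probes = 1.37e-10), a bound computed against the lowest signal well above background. In NZO against B6 the overlapping probes gave -0.99 ± 0.17 and -1.03 ± 0.11, whereas the third gave 0.32 ± 0.21 (adjusted p = 0.337) and did not pass. In NZO against DBA the third also pointed the other way and did not pass (0.37 ± 0.21, adjusted p = 0.264). On chromosome 4, the RefSeq gene table lists Ccl27b beside Ccl27a, and 3 pseudogenes named after Ccl19 beside Ccl19. The probes of Ccl27a and Ccl19 were not aligned to these copies and may also bind them. The values of Ccl27a and Ccl19 are therefore uncertain as to the copy.

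Ccl25, the ligand of Ccr9 known from gut and thymus, had levels of 1.42, 1.33, 1.61 and 1.54 in C3H livers, against -0.04, -0.13, 0.10 and 0.41 in 129/Ola livers. All C3H mice lay above all 129/Ola mice, with a difference of 1.39 ± 0.13 (limma, adjusted p = 5.24e-07). NZO livers had 0.89, 0.28, 0.78 and 0.76 and DBA livers 1.21, 1.37, 1.18 and 0.98, against 1.26, 1.33, 1.32 and 1.23 in B6 livers. NZO lay below both other strains without overlap, with log2 differences of -0.61 ± 0.13 against B6 (adjusted p = 0.00325) and -0.51 ± 0.13 against DBA (adjusted p = 0.0115).

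Of 4 probes named Ccl25, 3 were tested, and these did not move together between C3H and 129/Ola. They lie on the plus strand at chr8:4359916-4359975, chr8:4348678-4348737 and chr8:4327833-4327892 (mm9), and their first 30 of 60 bases, 5′ to 3′ and in lower case because no pair shares a run of more than 6 bases, read as follows in that order.
A_51_P161265: gaggaacgagaggatagtgagtgtgtgaga
A_66_P104618: aaacttgatgaccttactttgattccaagc
A_55_P2027852: aggcagaaggaaaatcaagtgggttccatc
The first and the second were higher in C3H, by 1.39 ± 0.13 and 1.76 ± 0.20 (adjusted p over all probes = 5.68e-07 and 3.29e-06). The third, which lies upstream of the others and is listed for a non-coding transcript, was lower in C3H by a log2 difference of -2.69 ± 0.26 (adjusted p = 4.42e-07). It had -2.70, -3.0, -3.17 and -3.78 in C3H livers, against -0.38, -0.72, -0.43 and -0.34 in 129/Ola livers. It exceeded background clearly on 1 of 4 C3H arrays and on every 129/Ola array. In NZO, the second probe and the third did not pass against B6 (-0.54 ± 0.20 and -0.15 ± 0.26, adjusted p = 0.0726 and 0.742) or against DBA (-0.54 ± 0.20 and -0.03 ± 0.26, adjusted p = 0.0705 and 0.963). With the mean over the probes in place of the brightest one, the difference of Ccl25 between C3H and 129/Ola was 0.15 and did not pass (adjusted p = 0.407).

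**Figure D3:**
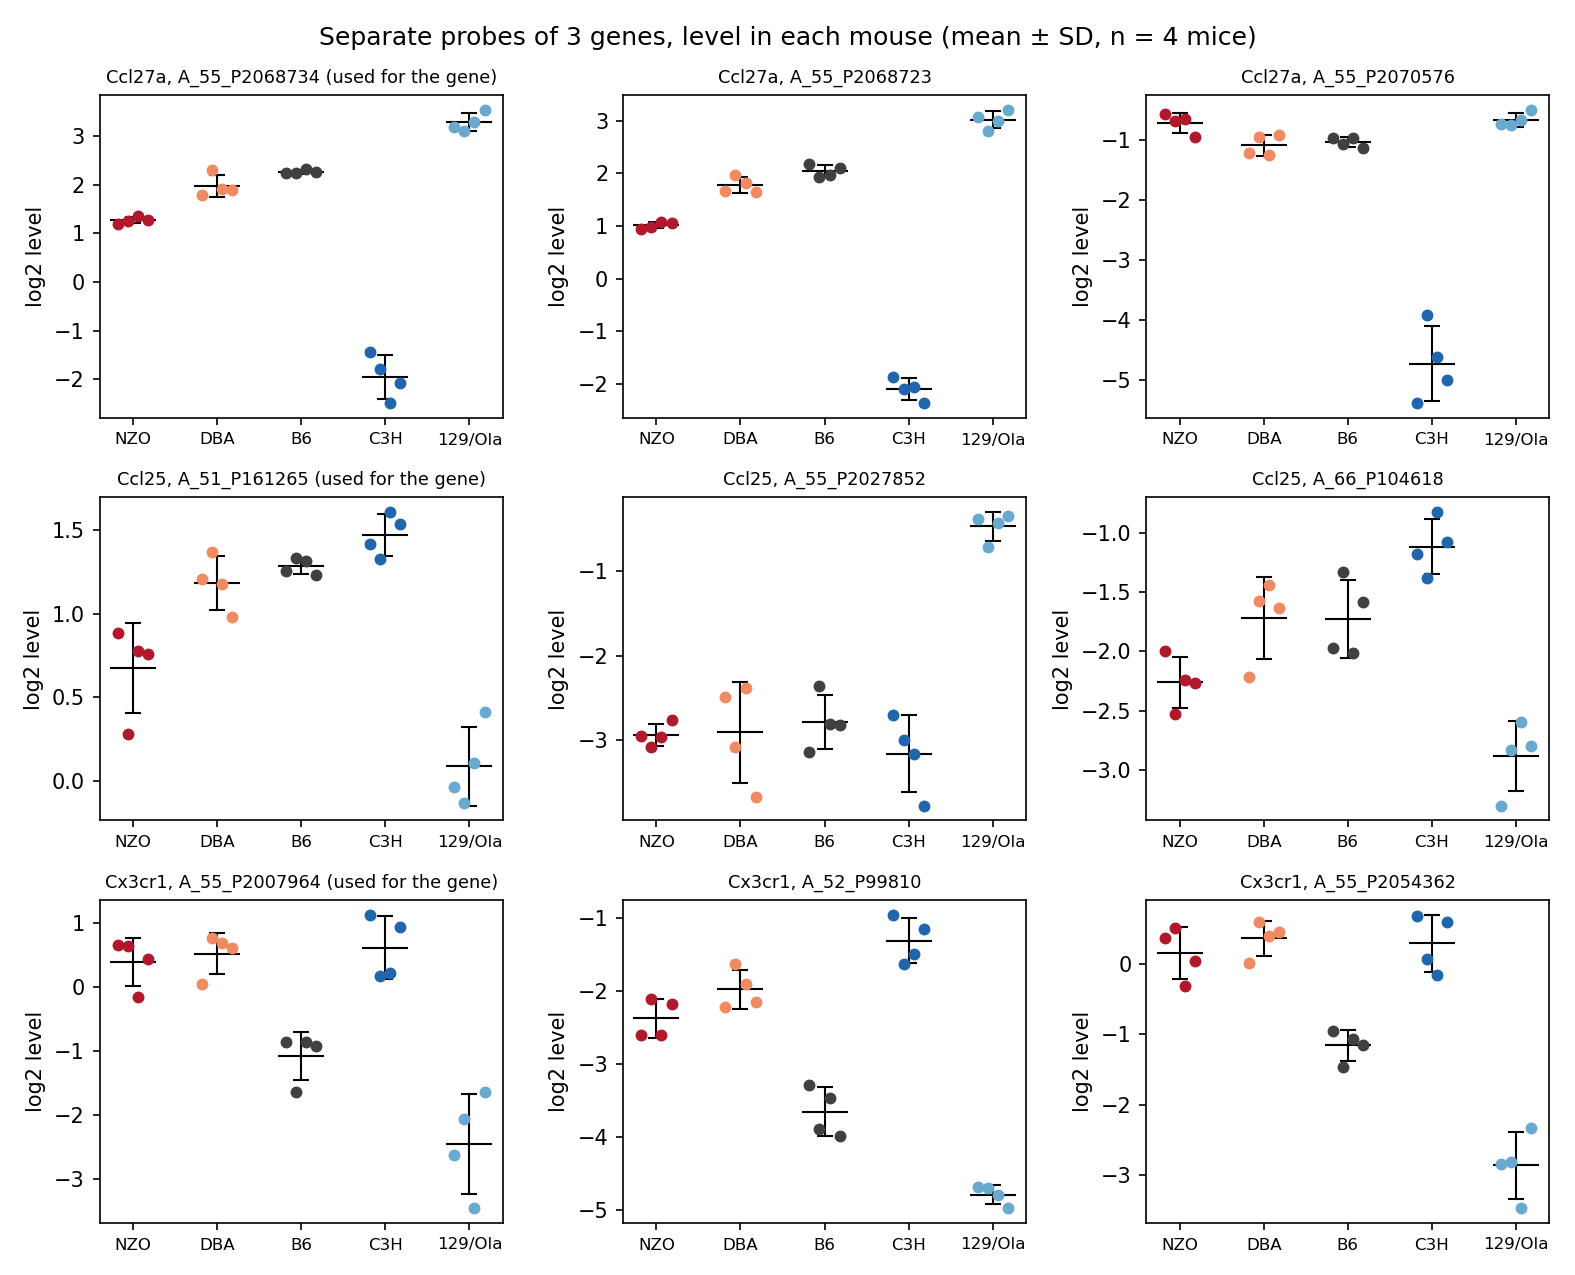
Level of each tested probe of Ccl27a, Ccl25 and Cx3cr1 in each mouse (points), with the mean and SD of the 4 mice of a strain (bar and whiskers), and a vertical axis of its own in each panel. All 3 Ccl27a probes are lowest in C3H, all 3 Cx3cr1 probes are lowest in 129/Ola, and 1 of the 3 Ccl25 probes is highest in 129/Ola while the other 2 are lowest there.

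Ccl19, which binds Ccr7 and guides dendritic cells and T cells to lymphoid tissue, had levels of 0.74, 0.39, 0.58 and 0.52 in NZO livers and -1.28, -1.30, -0.95 and -1.13 in DBA livers, against -0.41, -0.44, -0.64 and -0.19 in B6 livers. NZO lay above B6 and B6 above DBA, each without overlap. The differences were 0.98 ± 0.17 for NZO against B6 (limma, adjusted p = 4.15e-04), -0.75 ± 0.17 for DBA against B6 (adjusted p = 0.00461) and 1.72 ± 0.17 for NZO against DBA (adjusted p = 7.27e-07). Its other 2 tested probes passed in these comparisons with the same directions, with 0.72 ± 0.16 and 0.81 ± 0.12 for NZO against B6. C3H livers had -1.21, -1.03, -1.17 and -0.28, against -0.59, -0.94, -0.72 and -0.94 in 129/Ola livers, which overlapped, and the difference of -0.12 ± 0.17 did not pass (adjusted p = 0.59), whereas 1 of the other probes passed there with -0.76 ± 0.16 (adjusted p over all probes = 0.00172). This gene was read by a probe at chr4:42248630-42248689 on the plus strand (mm9). Ccl1, a ligand of Ccr8 and the last tested gene of this group, passed in none of the comparisons, and Ccl17, Ccl20, Ccl22 and Ccl28 were not tested.

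The CXC ligands of Cxcr2, which attract neutrophils, were represented by Cxcl1 alone, since Cxcl2, Cxcl3, Cxcl5 and Cxcl15 were not well above background on any array. Cxcl1 had levels of -1.54, -1.51, -1.23 and -1.45 in NZO livers and 0.25, 0.97, 0.81 and 0.28 in DBA livers, against -0.44, -0.47, 1.17 and 2.24 in B6 livers. All NZO mice lay below all DBA and B6 mice, and the B6 mice fell into 2 low and 2 high values. Cxcl1 was lower in NZO than in B6 (log2 difference -2.06 ± 0.54, limma, adjusted p = 0.0121) and than in DBA (-2.01 ± 0.54, adjusted p = 0.0138). The call against B6 did not pass with only the arrays of NZO and B6 or with the animal number as a block. Its value nearest 0 over the alternatives was -1.33. The call against DBA did not pass with scan day or the animal number as a block. C3H livers had 1.97, 0.31, 1.56 and -0.26, against -0.56, -1.76, -1.44 and -0.90 in 129/Ola livers. The C3H mice spread widely but stayed above the 129/Ola mice, with a difference of 2.06 ± 0.54 (adjusted p = 0.00699). That difference did not pass with slide as a random block or with the animal number as a block. Its probe is at chr5:91321845-91321904 on the plus strand (mm9).

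Lcn2, an acute phase gene induced through NF-kB, had levels of -0.22, 0.60, -0.20 and -0.49 in NZO livers and 2.17, 2.05, 1.21 and 2.10 in DBA livers, against 2.18, 1.33, 2.46 and 4.46 in B6 livers. C3H livers had 4.52, 1.72, 2.73 and 1.18, against 1.77, 1.64, 1.67 and 1.93 in 129/Ola livers. B6 mouse 15 and C3H mouse 1, the highest for Lcn2, were also the highest of their strains for Cxcl1. In the other strains the highest mice differed. They were NZO 7 for Lcn2 and NZO 9 for Cxcl1, and 129/Ola 9 for Lcn2 and 129/Ola 4 for Cxcl1. DBA 5 was highest for Lcn2 and lowest of its strain for Cxcl1. A list of 26 cytokines, inducers and NF-kB targets held 20 tested genes, of which none was higher and 6 lower in NZO against B6, none higher and 5 lower in DBA against B6, 1 higher and 3 lower in NZO against DBA, and 2 higher and 4 lower in C3H against 129/Ola. The 3 with the smallest p in NZO against B6 were Nfkbie (-1.81), Nfkb2 (-0.46) and Lcn2 (-2.69). Tnf, Il1a, Il6, Ifng, Il10 and Sele were not tested. The counts of the list stand beside 18.3%, 15.4%, 18% and 38% of all genes, in the same order of comparisons. The summed linear level of the list ran over 233 to 473 in NZO, 353 to 507 in DBA, 353 to 1705 in B6, 359 to 1808 in C3H and 609 to 1030 in 129/Ola, in units of the array's 75th percentile, and Saa1 and Saa2 gave 47.1% and 36.7% of it. The part of these genes in the Cxcl1 differences was not tested.

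The promoter windows of RefSeq (GRCm38.p6) cover 36 of the 51 genes with 40 windows. They were searched on both strands for 1 form of the NF-kB motif (GGGA, any 2 bases, then TTCC). The same was done for 1 form of the interferon-stimulated response element (GAAA, any 2 bases, then GAAA). Sites with other letters were not searched for, so bases in lower case may hold some. Each window runs from 250 bases before to 50 after the gene start. The NF-kB letters stood in windows of 6 of the 36 genes, Ccl1, Ccr3, Cxcl1, Cxcl2, Cxcl3 and Cxcl10. By windows, that was 6 of the 40 (15%), beside 1.47% of all 32851 windows. The response element letters stood in windows of 3 genes, Ccl19, Cxcl10 and Cxcl14, which was 3 of the 40 windows (7.5%), beside 3.44% of all windows. The 250 bases before the gene start are shown for Cxcl1, which passed in 3 comparisons, and for Cxcl10, which holds both motifs and passed in 1, with the matches in capitals. In Cxcl1, matches on both strands overlap in the run shown. The Cxcl1 window is chr5:90890995-90891244 on the plus strand and the Cxcl10 window chr5:92348890-92349139 on the minus strand.
Cxcl1: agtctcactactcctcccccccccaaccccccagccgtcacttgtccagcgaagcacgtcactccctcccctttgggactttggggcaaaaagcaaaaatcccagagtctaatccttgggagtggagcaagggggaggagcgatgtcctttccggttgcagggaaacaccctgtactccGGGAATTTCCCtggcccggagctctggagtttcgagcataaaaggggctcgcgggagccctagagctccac
Cxcl10: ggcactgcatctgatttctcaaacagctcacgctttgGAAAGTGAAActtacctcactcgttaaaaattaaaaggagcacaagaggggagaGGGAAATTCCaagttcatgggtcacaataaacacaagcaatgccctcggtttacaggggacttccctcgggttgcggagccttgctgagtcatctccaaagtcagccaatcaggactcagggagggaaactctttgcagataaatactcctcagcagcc
A match describes letters in the reference genome, not binding, and the strains' own sequences were not used here.

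The interferon-induced ligands of Cxcr3, Cxcl9, Cxcl10 and Cxcl11, were all tested and gave 1 call. Cxcl10 was higher in NZO, with a mean level of 1.75 ± 0.19, than in DBA, with 1.04 ± 0.28 (SD, n = 4 each), a difference of 0.71 ± 0.22 (limma, adjusted p = 0.029). The lowest NZO mouse lay above the highest DBA mouse. The call did not pass without NZO 3, NZO 11, DBA 9 or DBA 15 (adjusted p from 0.0668 to 0.0981), and within scan days the difference was 1.11 on day 1 (3 NZO mice and 1 DBA mouse) and 0.22 on day 2 (1 mouse each). Cxcl9 had 1.49, 1.56, 1.29 and 2.79 in B6 livers, with mouse 15 highest, and neither Cxcl9 nor Cxcl11 passed in any comparison. The probe that stood for Cxcl11 read 9.13 to 9.80 over the 20 mice, and its second tested probe read 1.25 to 2.56. The transcript listed for both probes was not found in the RefSeq gene table. Whether either probe measured Cxcl11 was not tested.

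Of the other CXC and CX3C ligands, 5 of 6 were tested, and 3 were higher and 1 lower in DBA than in B6. Cxcl14, a CXC ligand made by epithelia, had levels of -1.02, 0.36, 0.01 and -0.87 in NZO livers and 2.28, 2.10, 1.88 and 2.35 in DBA livers, against -0.97, -0.67, -0.20 and -0.61 in B6 livers. The DBA mice stood above all NZO and B6 mice, which overlapped with each other. The log2 difference was 2.77 ± 0.38 for DBA against B6 (limma, adjusted p = 3.83e-05) and -2.53 ± 0.38 for NZO against DBA (adjusted p = 9.03e-05). C3H livers had 2.59, 1.25, 1.26 and 0.57, against 1.5, 1.60, 0.44 and 0.68 in 129/Ola livers, with overlap and no call (0.36 ± 0.38, adjusted p = 0.475). The probe for this gene maps to chr13:56390078-56390137 on the minus strand (mm9).

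Cxcl13, the B cell attractant that binds Cxcr5, was higher in DBA, at 0.09, -1.39, -1.85 and -1.24, than in B6, at -3.46, -3.07, -2.64 and -4.05. The groups did not overlap, and the difference was 2.21 ± 0.47 (limma, adjusted p = 0.00264), with 3 of the 4 B6 arrays well above background. NZO averaged -2.17 ± 0.14 (SD, n = 4), between these strains and without overlap with either, and 1.14 ± 0.47 against B6 did not pass (adjusted p = 0.108). Cxcl13 was not well above background on any C3H or 129/Ola array. Cxcl12, the ligand of Cxcr4, was higher in DBA than in B6 by 0.41 ± 0.13 (adjusted p = 0.0387), a call that did not pass without any 1 of 6 mice, DBA 5, DBA 8, DBA 15, B6 10, B6 11 and B6 15 (adjusted p from 0.0533 to 0.137), and the second Cxcl12 probe gave 0.01 ± 0.14 (adjusted p over all probes = 0.971).

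Cx3cl1, or fractalkine, the membrane-anchored ligand of Cx3cr1, had levels of -1.85, -1.81, -1.47 and -2.41 in NZO livers and -3.39, -2.65, -2.66 and -3.32 in DBA livers, against -1.38, -1.66, -1.28 and -1.04 in B6 livers. All DBA mice lay below all NZO and B6 mice. The difference was -1.67 ± 0.22 for DBA against B6 (limma, adjusted p = 2.66e-05) and 1.12 ± 0.22 for NZO against DBA (adjusted p = 0.00136). C3H livers had -2.34, -2.58, -2.56 and -2.70, against -1.82, -2.70, -2.39 and -2.21 in 129/Ola livers, with overlap and no call (-0.26 ± 0.22, adjusted p = 0.367). This gene was read by a probe at chr8:97306185-97306244 on the plus strand (mm9).

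Cxcl16, the transmembrane ligand of Cxcr6, had levels of -0.33, -0.30, -0.21 and -0.57 in NZO livers and 0.20, 0.24, 0.13 and 0.08 in DBA livers, against 0.06, -0.05, 0.11 and -0.12 in B6 livers. NZO lay below every mouse of the other strains, with small differences of -0.35 ± 0.08 against B6 (limma, adjusted p = 0.00532) and -0.51 ± 0.08 against DBA (adjusted p = 0.00015). C3H livers had 0.05, -0.05, 0.08 and -0.02, against 0.23, 0.10, 0.17 and 0.14 in 129/Ola livers, a difference of -0.14 ± 0.08 that did not pass (adjusted p = 0.183), although the groups did not overlap. Its probe is at chr11:70267780-70267839 on the minus strand (mm9). Cxcl17 was not well above background on any array.

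Among the CC receptors, 7 of 10 were tested. Ccr3, the eotaxin receptor of eosinophils, had levels of -0.36, -0.15, -0.34 and -0.38 in NZO livers and -0.61, -0.16, 0.27 and 0.03 in DBA livers, against -3.72, -2.96, -2.65 and -2.76 in B6 livers. NZO and DBA overlapped with each other and lay far above all B6 mice. Ccr3 was higher than in B6 by 2.71 ± 0.25 in NZO (limma, adjusted p = 2.70e-07) and by 2.91 ± 0.25 in DBA (adjusted p = 1.12e-07), and NZO against DBA gave -0.19 ± 0.25 (adjusted p = 0.672). C3H livers had -2.33, -2.86, -2.63 and -2.81, against -3.32, -2.31, -2.78 and -2.36 in 129/Ola livers, each with 1 of 4 arrays well above background and no call (0.03 ± 0.25, adjusted p = 0.924). Within scan days, NZO exceeded B6 by 2.50 on day 1 (3 NZO and 2 B6 mice) and by 3.03 on day 2 (1 and 2). DBA exceeded B6 by 3.13 and 2.58, with 1 DBA and 2 B6 mice on each day. These directions were fixed, because the mice of the strains did not overlap.

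A single probe measured Ccr3, at chr9:123945225-123945284 on the plus strand (mm9), and the first 30 of its 60 bases, 5′ to 3′, are shown because no second probe measured this gene.
A_52_P661044: accggccctcacataccaaatagaggatgt
Of 8 eosinophil and mast cell markers, 7 were not tested. Epx and Fcer1a were not well above background on any array, Cpa3 on 1, Prg2 and Siglec5 on 2, Mcpt4 on 3 and Il5ra on 7 of the 20 arrays. Kit, the tested one, had a linear level of 0.536 to 0.750 in NZO and 0.469 to 0.880 in DBA, against 0.634 to 1.1 in B6, and passed in neither comparison. The part of such cells in the Ccr3 difference was not tested.

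Ccr7, the receptor of Ccl19 on dendritic cells and naive T cells, had levels of -2.58, -2.52, -2.83 and -3.30 in NZO livers and -2.13, -2.11, -2.66 and -2.35 in DBA livers, against -1.93, -2.01, -1.82 and -1.42 in B6 livers. All NZO and all DBA mice lay below all B6 mice. The difference passed for NZO against B6 (-1.01 ± 0.26, limma, adjusted p = 0.00973) and not for DBA against B6 (-0.52 ± 0.26, adjusted p = 0.22). C3H livers had -3.89, -3.41, -3.21 and -3.33, not well above background on any array, against -1.55, -2.55, -2.99 and -2.12 in 129/Ola livers, where 2 arrays were. Ccr7 was at least 1.64-fold lower in C3H (adjusted p = 0.0023). This gene was read by a probe at chr11:99005551-99005610 on the minus strand (mm9).

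Ccr9, Ccr8, Ccr2 and Ccr6 lay near background. Ccr9, the receptor of Ccl25, was lower in NZO than in B6 (-1.09 ± 0.31, limma, adjusted p = 0.0213), with 2 of 4 NZO arrays well above background, and did not pass without NZO 11 or B6 11 (adjusted p from 0.0592 to 0.0731). Only B6 had all 4 arrays well above background, so Ccr9 entered the test through the strain in which it was higher. The filter itself therefore favours such a call. The Ccr9 call also did not pass with normexp, with scan day as a fixed block or with only the arrays of NZO and B6. Its value nearest 0 over the alternatives was -0.07. Ccr8, the receptor of Ccl1, was well above background on 3 of 4 C3H arrays and on no 129/Ola array, and was at least 1.41-fold higher in C3H (adjusted p = 0.00548), although the mice overlapped and normexp gave 0.04 (adjusted p = 0.818). Ccr2, the receptor of Ccl2 on inflammatory monocytes, and Ccr6, the receptor of Ccl20, passed in no comparison. Ccr1, Ccr4 and Ccr10 were not tested, and Ccr10, the receptor of Ccl27a, was well above background on 5 of 20 arrays.

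Cx3cr1, the fractalkine receptor of monocytes and tissue macrophages, had levels of 0.66, 0.64, -0.15 and 0.44 in NZO livers and 0.05, 0.76, 0.69 and 0.61 in DBA livers, against -0.86, -1.63, -0.86 and -0.92 in B6 livers. NZO and DBA overlapped with each other and lay above all B6 mice. The difference was 1.47 ± 0.33 for NZO against B6 (limma, adjusted p = 0.00446) and 1.59 ± 0.33 for DBA against B6 (adjusted p = 0.00236). C3H livers had 1.13, 0.17, 0.22 and 0.94, against -2.62, -2.06, -3.45 and -1.64 in 129/Ola livers, where 2 of 4 arrays were well above background. The groups were far apart, with a difference of 3.06 ± 0.33 (adjusted p = 2.36e-06).

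The 3 Cx3cr1 probes lie on the minus strand at chr9:119957811-119957870, chr9:119957806-119957865 and chr9:119959018-119959077 (mm9). Their first 30 of 60 bases, 5′ to 3′, are shown in that order, with capitals for bases of a run of 55 that the first and second share, to show that the third is the independent measurement.
A_55_P2007964: cgtgcCTAGAGTGTGTCTATCCCACTTGTA
A_55_P2054362: CTAGAGTGTGTCTATCCCACTTGTAATTCT
A_52_P99810: caagaatgtcttcatgcattcactgactcc
The third probe had -2.60, -2.11, -2.60 and -2.18 in NZO livers and -2.22, -1.62, -1.90 and -2.15 in DBA livers, against -3.28, -3.88, -3.46 and -3.98 in B6 livers. It was higher than in B6 by 1.28 ± 0.19 in NZO and by 1.68 ± 0.19 in DBA (limma, adjusted p over all probes = 7.40e-05 and 3.30e-06), without overlap. In C3H against 129/Ola it was at least 2.65-fold higher (adjusted p = 2.50e-10), with no 129/Ola array well above background.

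Cxcr3 and Cxcr6, the receptors of Cxcl9 to Cxcl11 and of Cxcl16 on T cells, were lower in NZO than in B6, with log2 differences of -1.06 ± 0.24 (limma, adjusted p = 0.00396) and -0.49 ± 0.14 (adjusted p = 0.0246). Cxcr3 averaged -2.40 ± 0.36 in NZO and -1.34 ± 0.26 in B6, and Cxcr6 averaged -1.16 ± 0.13 in NZO and -0.67 ± 0.29 in B6 (SD, n = 4 each). Neither gene overlapped between these strains. The Cxcr6 call did not pass without NZO 9, NZO 11, B6 11 or B6 15 (adjusted p from 0.0543 to 0.0884), and a second probe, which shares a run of 50 bases with the first, gave -0.30 ± 0.26 (adjusted p over all probes = 0.481). Cxcr1, Cxcr2, Cxcr4 and Cxcr5 were not tested, of which Cxcr1 and Cxcr4 were not well above background on any array.

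**Figure D4:**
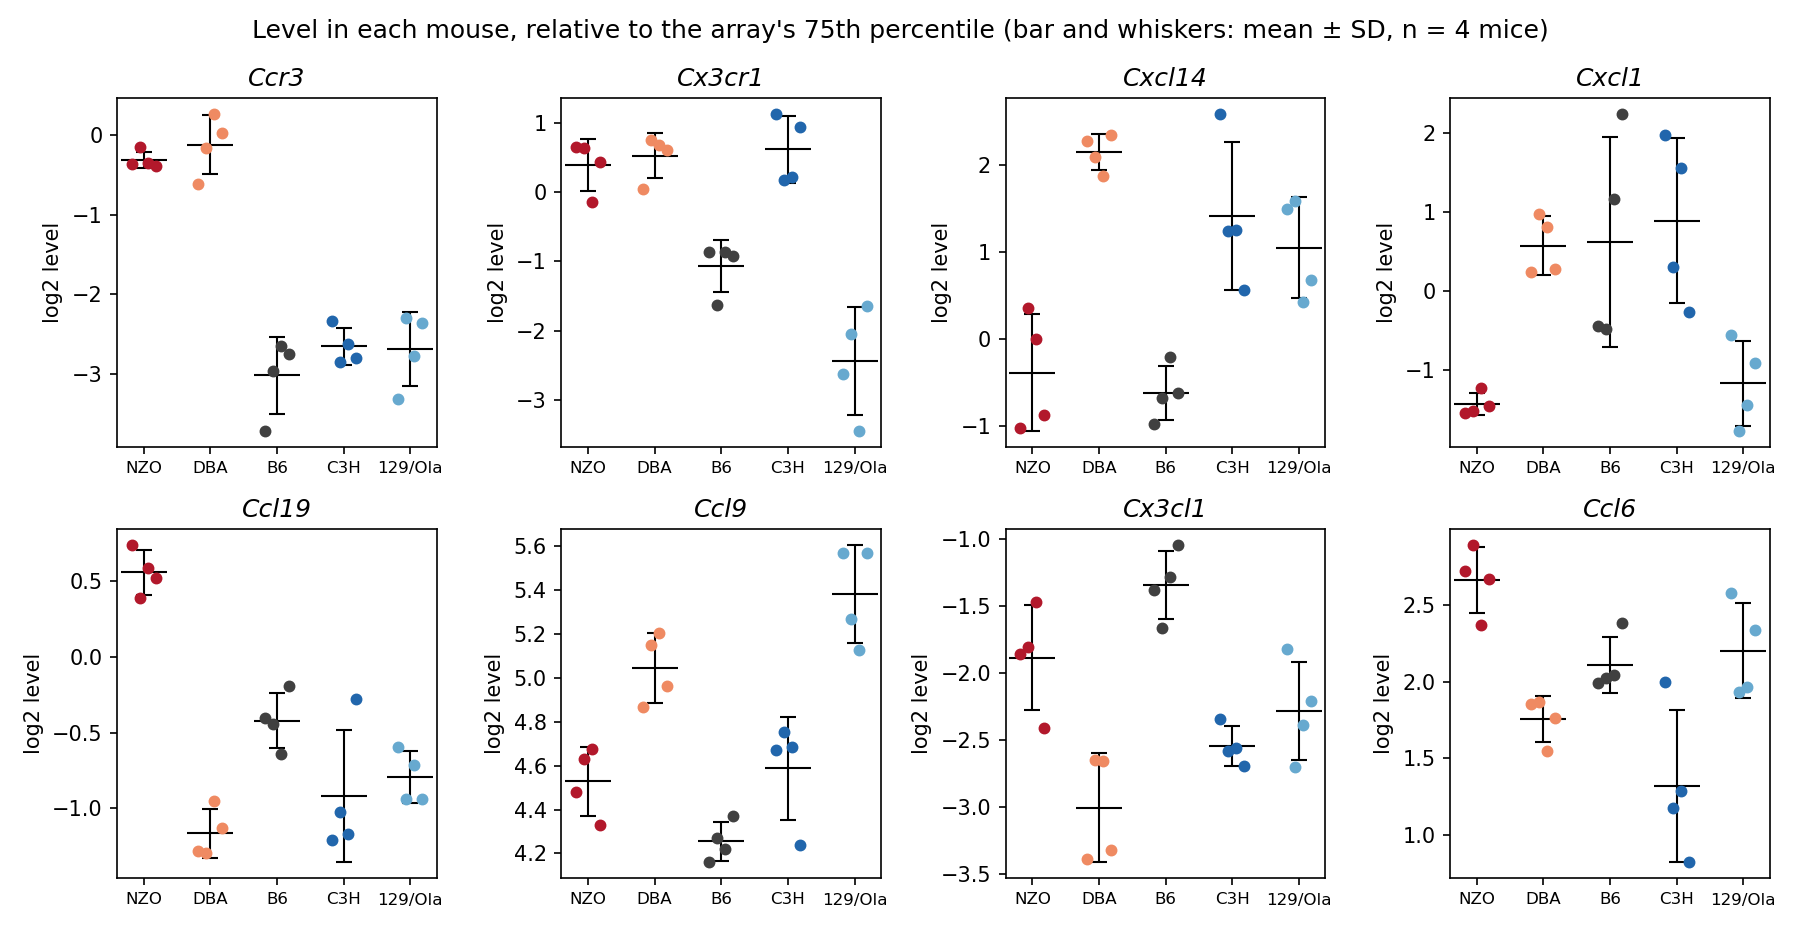
Level of 8 genes in each mouse (points), as log2 signal relative to the array's 75th percentile, with the mean and SD of the 4 mice of a strain (bar and whiskers). Ccr3 is high in NZO and DBA, Cxcl1 is low and tight in NZO with wide spreads in B6 and C3H, and Cxcl14, Ccl9 and Cx3cl1 set DBA apart from B6.

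Markers of the leukocytes that carry these receptors were counted in the same way, and their counts stand beside 18.3% of all genes for NZO against B6, 15.4% for DBA against B6, 18% for NZO against DBA and 38% for C3H against 129/Ola. Of 15 Kupffer cell markers, none was higher and 7 lower in NZO against B6, 2 were higher and 7 lower in DBA against B6, 2 higher and none lower in NZO against DBA, and 1 higher and 11 lower in C3H against 129/Ola. Their summed linear level ran over 189 to 222 in NZO, 192 to 212 in DBA, 259 to 379 in B6, 132 to 228 in C3H and 201 to 287 in 129/Ola, so that B6 stood above NZO and DBA. Of 9 monocyte markers measured, 1 was higher and 4 lower in NZO against B6, none higher and 1 lower in DBA against B6, 2 higher and 1 lower in NZO against DBA, and 3 higher and 1 lower in C3H against 129/Ola. Their sums ran over 71.9 to 124 in NZO, 18.2 to 21.9 in DBA, 21.9 to 33.8 in B6, 25.6 to 33.8 in C3H and 21.9 to 31.1 in 129/Ola, and Ly6c1, a monocyte and endothelial marker that gave 60.8% of the sum, was 2.84 higher on the log2 scale in NZO than in B6. Of 11 dendritic cell markers, none was higher in NZO or in DBA against B6, while 5 and 4 were lower, 1 was higher and 3 lower in NZO against DBA, and 1 was higher and 4 lower in C3H against 129/Ola. Their sums ran over 111 to 188 in NZO, 170 to 210 in DBA, 172 to 254 in B6, 149 to 165 in C3H and 205 to 228 in 129/Ola, and Siglech gave 81.0% of the sum.

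Of 11 T cell markers tested, 2 were higher and 2 lower in NZO against B6, 1 was higher and 2 lower in DBA against B6, 1 higher in NZO against DBA, and 3 higher in C3H against 129/Ola, with Cd8a and Cd8b1 not tested. Their sums ran over 46.6 to 65.2 in NZO, 44.5 to 59.2 in DBA, 32.0 to 40.5 in B6, 44.9 to 56.2 in C3H and 34.7 to 56.0 in 129/Ola. Cd4, Zap70 and Cd3e gave 45.1%, 38.3% and 11.8% of the sum, while Cd3d (-1.08) and Thy1 (-0.72) were lower in NZO than in B6 and Zap70 (1.08) was higher. Of 10 natural killer cell markers, 5 were tested and Ncr1, Klrb1c, Klrk1, Gzmb and Eomes were not. Of the 5, none passed in NZO against B6, 2 were lower in DBA against B6, and both of these, Klrd1 and Gzma, were higher in NZO against DBA, while 1 was higher in C3H against 129/Ola. Their sums ran over 4.88 to 6.98 in NZO, 3.55 to 6.36 in DBA, 5.43 to 6.88 in B6, 4.77 to 5.98 in C3H and 3.84 to 5.11 in 129/Ola, and Nkg7 gave 67.7% of the sum. Of 10 neutrophil markers tested, 3 were higher in NZO against B6, 1 was lower in DBA against B6, 4 were higher in NZO against DBA and 1 was higher in C3H against 129/Ola. Their sums ran over 105 to 154 in NZO, 128 to 131 in DBA, 120 to 158 in B6, 142 to 159 in C3H and 150 to 208 in 129/Ola. Csf3r gave 93.4% of that sum, and the markers higher in NZO than in B6 were Ly6g (1.68), Camp (1.87) and Ltf (1.62). The part of any of these cells in the differences of the chemokines and receptors was not tested.

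Beyond the ligands and receptors themselves, genes that bind, process or transmit chemokine signals were also measured, with the same shares of all genes as background. Of 9 tested genes of atypical receptors, decoys and chemokines outside the naming rule, 1 was higher and 1 lower in NZO against B6, 2 higher and 2 lower in DBA against B6, 1 higher in NZO against DBA and 2 lower in C3H against 129/Ola. Ackr1, a decoy receptor of erythroid and endothelial cells that binds many CC and CXC ligands, had levels of 0.40, 0.18, -0.27 and -0.35 in NZO livers and -0.33, 0.30, -0.09 and 0.11 in DBA livers, against -1.39, -1.35, -1.0 and -1.07 in B6 livers. The B6 mice lay below all others of this comparison, with differences of 1.19 in NZO and 1.20 in DBA. Of 21 tested genes of receptor signalling, none was higher and 2 lower in NZO against B6 (Adrbk2, the receptor kinase Grk3, with -2.19, and Grk5 with -1.67), 2 higher and 5 lower in DBA against B6, 3 higher and 3 lower in NZO against DBA, and 3 higher and 5 lower in C3H against 129/Ola. The kinase Ptk2b gave -1.62 in DBA against B6, 1.92 in NZO against DBA and 2.53 in C3H against 129/Ola. Of 13 tested genes that cleave chemokines or present them on cell surfaces, 2 were higher and 1 lower in NZO against B6, 3 higher in DBA against B6, 3 lower in NZO against DBA, and 2 higher and 2 lower in C3H against 129/Ola. Sdc4, a heparan sulfate carrier, had the greatest difference of them, -2.89 in C3H against 129/Ola.

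The difference between DBA and B6 and that between C3H and 129/Ola, each a susceptible against a resistant strain, share no mice. They had the same sign for 14 of the 29 genes, beside 49.1% of all genes. In both, 4 genes passed, beside 8.21% of all genes, and 3 of them moved the same way, beside 4.23% of all genes. Ccl24 and Ccl5 were lower and Cx3cr1 was higher in both DBA and C3H, whereas Ccl9 was higher in DBA and lower in C3H. In NZO, which is also prone to diabetes, Cx3cr1 was higher than in B6 (1.47). Ccl24 (-0.05), Ccl5 (-0.13) and Ccl9 (0.27) did not pass in NZO against B6. With slide as a random block, Ccl24 (adjusted p = 0.22) and Ccl5 (adjusted p = 0.206) did not pass in C3H against 129/Ola. A test of the difference itself passed for 14 of the 29 genes, 6 in the positive and 8 in the negative direction, beside 28.1% of all genes. With slide as a random block 5 genes passed, 3 in the positive and 2 in the negative direction, with the animal number as a block 6, and 9 passed in the authors' value table. For the genes among the 14 that were well above background on every array of these strains, the values were 4.95 ± 0.24 for Ccl27a, 2.40 ± 0.54 for Cxcl14, 1.59 ± 0.18 for Ccl9, 0.53 ± 0.19 for Cxcl12, -1.49 ± 0.19 for Ccl25 and -2.11 ± 0.76 for Cxcl1, as (DBA minus B6) minus (C3H minus 129/Ola) with SE. Cx3cr1, higher in both DBA and C3H, was among the 14, since it differed more between C3H and 129/Ola (-1.47 ± 0.47). Of the 129/Ola arrays, 2 of 4 were well above background for it. Its lowest difference over the alternatives was 1.06 in C3H against 129/Ola and 0.95 in DBA against B6.

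Every gene that passed among NZO, DBA and B6 had mice without overlap, so its direction within a shared scan day was fixed, and the scan-day block bears on these calls instead. With that block, Ccl9, Ccl25, Cx3cl1, Cxcl1 and Cxcl10 did not pass in NZO against DBA. Nor did Ccr9, Cxcl16 and Cxcr6 in NZO against B6, or Cxcl12 in DBA against B6. Leaving out scan day 3, chosen after seeing the data, ended the calls of Ccl9, Ccl24, Ccl27a, Cxcl1 and Cxcl10 in NZO against DBA. It also ended those of Ccl5, Ccl19 and Cxcl12 in DBA against B6. Genes that passed under every alternative that tested them included Ccl27a, Ccr3 and Cxcr3 in NZO against B6, Ccl9, Ccr3, Cx3cl1, Cxcl13 and Cxcl14 in DBA against B6, Ccl19 and Cxcl14 in NZO against DBA, and Ccl27a and Cx3cr1 in C3H against 129/Ola. The sizes of these calls varied over the alternatives. Ccr3 ran from 1.06 to 2.89 in NZO against B6 and from 1.17 to 3.10 in DBA against B6. In DBA against B6, Cx3cl1 ran from -1.91 to -0.58, Cxcl13 from 0.79 to 2.46 and Ccl9 from 0.65 to 0.85. Cxcr3 ran from -1.16 to -0.26 in NZO against B6, and Cx3cr1 from 1.06 to 3.33 in C3H against 129/Ola. None of these alternatives put another single probe in place of the one used for a chemokine gene. The third Ccl27a probe pointed the other way in NZO against B6 and did not pass (0.32 ± 0.21, limma, adjusted p over all probes = 0.337). Over the 4 comparisons, 5 of the 29 genes passed in none, 8 in 1, 9 in 2, 7 in 3 and none in 4. The 22 genes that were not tested comprise 10 that were not well above background on any array and 12 that were so on 1 to 5 of the 20 arrays. For these, strain differences could not be told from background.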

How the data were processed

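RNA of 20 livers was hybridised to 1-colour Agilent mouse arrays of 62976 spots, 1 array per mouse and 4 mice per strain, grouped by the strain in the labels. The deposited scanner files hold spot intensity, and the processed signal used here was background-corrected by Agilent's software, per the file headers. The headers name software version 11.0.1.1 for NZO, DBA and B6 and 11.5.1.1 for C3H and 129/Ola, while the submitters' processing notes name Agilent Feature Extraction 9.1. The deposited value table holds intensity values that were quantile normalized, as found by setting it against the scanner files, and served as an alternative.

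Control spots (3671) and outlier spots (96 to 186 per array) were left out, spots of a probe were averaged, and log2 signals were centred on each array's 75th percentile. A probe entered the test if any strain had it well above background on each of its 4 arrays, giving 28417 probes and 20566 genes, 1 probe per gene. No spot was saturated. limma 3.58.1 in R 4.3.3 was fitted to all 20 arrays with strain as the factor, with Benjamini-Hochberg adjustment over all genes and a threshold of 0.05, and the scripts were tested on simulated data. "At least" folds set the brighter strain's mean against the lowest signal well above background in the dimmer one. Python 3.11.15 with pandas 2.3.3 and matplotlib 3.10.9 drew the figures.

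Members, gene lists and tests were chosen with earlier results of these data known, so they are no independent support. Results of 1 tested gene are counted but not reported here. Every other tested chemokine gene past the threshold is named, and values by mouse are given for the other genes among the 15 with the smallest F-test p and where probes disagreed; values by mouse of Cxcl9 and Cxcl13, Ackr1 and Lcn2 were added after they were seen. Alternatives concerned normalization, background correction, the filter on dim probes, probe choice, the value table, the arrays in the fit, slide and scan day, animal number and each mouse left out. Same-numbered mice of different strains did not deviate together. Probe positions are those of the array's annotation (mm9), without exon or UTR position.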

Additional observations from a re-analysis of the deposited data

Results flagged for a closer look

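Of 145 sets of 4 mice (29 genes in 5 strains), 9 held a mouse far from the other 3 of its strain by Dixon's criterion, which flags about 5% of groups by chance. B6 mouse 15 stood above the other B6 mice for Cxcr3 (-0.96, others -1.50 to -1.45), Ccl6 (2.39, others 1.99 to 2.04) and Ccl5 (2.22, others 1.47 to 1.57). NZO mouse 7 stood above its strain for Ccl24 (1.11, others 0.69 to 0.74) and Ccr3 (-0.15, others -0.38 to -0.34). C3H mouse 1 was high for Ccl24 (0.92, others -0.04 to 0.10), and C3H mouse 5 was low for Ccl9 (4.24, others 4.67 to 4.76). 129/Ola mouse 4 was high for Ccr2 (-3.61, others -4.97 to -4.84), a gene not well above background on any 129/Ola array. B6 mouse 10 was low for Cx3cr1 (-1.63, others -0.92 to -0.86).

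The difference of DBA minus B6 and that of C3H minus 129/Ola differed from each other by limma's interaction test in 14 genes, beside 28.1% of all genes. As the first minus the second on the log2 scale, the values given here were 4.95 for Ccl27a, 2.87 for Ccr3, 2.56 for Cxcl13, 2.40 for Cxcl14, 1.59 for Ccl9 and 0.53 for Cxcl12. They were -2.36 for Ccr8, -2.11 for Cxcl1, -2.10 for Ccl2, -1.99 for Ccl4, -1.49 for Ccl25, -1.47 for Cx3cr1 and -1.40 for Cx3cl1. The values of Cxcl13 (no C3H or 129/Ola array well above background), Ccl4 (1 C3H and no 129/Ola array), Ccr8 (no 129/Ola array) and Ccr3 (1 array of each) rest in part on signals near background and are no measured sizes there. Ccl2 and Cx3cr1 were each well above background on 2 of 4 129/Ola arrays, and Cx3cl1 on 3. Their values rest in part on such signals too. In C3H against 129/Ola, strain and scan day cannot be told apart, which touches each of these values.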

How the results depend on the processing

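With each mouse left out in turn, 20 to 24 genes differed between strains in the F test, 9 to 13 in each of NZO and DBA against B6, 11 to 13 in NZO against DBA, 10 to 13 in C3H against 129/Ola and 12 to 16 in the test of the difference between the pairs of strains. With only probes well above background on all arrays, 15 of the 29 genes remained to be tested, and the counts were 12 in the F test, 6 for NZO against B6, 7 for DBA against B6, 7 in C3H against 129/Ola and 7 between the pairs. Slide as a random block (consensus correlation 0.38) gave 4 in C3H against 129/Ola and 5 between the pairs, and the authors' value table, with 25 of the genes, gave 9 between the pairs. In NZO against DBA, scan day as a fixed block gave 7, and leaving out scan day 3, chosen after seeing the data, also gave 7. Ccl4 in C3H against 129/Ola turned to -0.0082 with normexp. Ccl2, Ccl5 and Ccr8 also did not pass there with normexp, nor did Ccr7, Ccr9 and Cxcr6 in NZO against B6. The cause was not tested. Scaling on the probes detected on all arrays moved the median of all genes in C3H against 129/Ola by 0.16, with 4522 genes higher and 2580 lower in place of 3154 and 4655, and 7 chemokine genes higher and 5 lower.

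Animal numbers recur between strains, and over 13 same-numbered pairs the correlation of deviations ran from -0.34 to 0.38, with 2 above 0.1, so the numbers were not read as a pairing. As a replicate block, the animal number gave 14 in the F test, 5 in NZO against B6, 6 in NZO against DBA, 4 in C3H against 129/Ola, 6 between the pairs and 9 in DBA against B6. Genes near background, such as Ccl4, Ccr8 and Ccr9, are limited by signal over background.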

Other observations

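Markers of the other liver cells gave the following counts. Beside them stand 18.3% of all genes for NZO against B6 and 15.4% for DBA against B6. For NZO against DBA the share of all genes was 18%, and for C3H against 129/Ola it was 38%. Of 12 sinusoidal endothelial markers, 1 was higher in NZO against B6, 1 was higher and 3 lower in DBA against B6, 3 were higher in NZO against DBA, and 2 were higher and 7 lower in C3H against 129/Ola. Of 12 stellate cell markers, 3 were lower in NZO against B6, 1 was higher and 5 lower in DBA against B6, 2 were higher and 5 lower in NZO against DBA, and 2 were higher and 3 lower in C3H against 129/Ola. Of 8 tested cholangiocyte markers, 1 was higher and 3 lower in NZO against B6, 1 higher and 2 lower in DBA against B6, 1 higher and 1 lower in NZO against DBA, and 2 lower in C3H against 129/Ola. Of 8 tested B cell and plasma cell markers, 1 was higher and 1 lower in NZO against B6, 1 higher in DBA against B6, 1 higher and 1 lower in NZO against DBA, and 2 higher and 2 lower in C3H against 129/Ola. Of 6 tested platelet markers, 1 was lower for NZO and 1 for DBA against B6, none in NZO against DBA and 1 in C3H against 129/Ola. Of the 12 hepatocyte markers, 1 was higher in NZO against B6, none passed in DBA against B6, 1 was higher and 1 lower in NZO against DBA, and 2 were higher and 2 lower in C3H against 129/Ola.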
